A study of Homo sapiens with 12 samples.

Results

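The 9 genes described here encode ligands, receptors and membrane proteins of non-canonical Wnt signalling and planar cell polarity: WNT5A, WNT5B, ROR1, ROR2, RYK, FZD2, VANGL1, VANGL2 and PTK7. They were listed by gene name, with earlier results of these data known. Each had a single protein-coding row in the deposited count table, and they are 9 of 44664 gene intervals used. All 9 passed the filter on low counts, beside 25196 genes tested in all.

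In non-canonical Wnt signalling, WNT5-type ligands act through frizzled receptors and the co-receptors ROR1, ROR2, RYK and PTK7, without the beta-catenin and TCF transcription step of the canonical branch. Signals pass through Dishevelled to small GTPases and JNK, or to calcium-dependent kinases and phosphatases. The planar polarity proteins, VANGL1 and VANGL2 among them, orient cells and their movement within a tissue, and in glioma cells WNT5A is known mainly for its link to invasion.

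RNA was measured in A172, an established adherent human glioblastoma line, given as wild type. The 3 groups of 4 libraries each received siRNA-1 against uc.110, siRNA-2 against uc.110 or a scrambled control siRNA. uc.110 is an ultraconserved element, a stretch of genome identical between human, mouse and rat. In every group, wells of a 6-well plate were transfected with 3 µL of siRNA at 20 µM and 9 µL of Lipofectamine for 6 h, and RNA was sent for sequencing on day 2. All libraries come from 1 line, and the labels do not say whether a group's libraries came from separate cultures, so p-values measure a spread that may be technical. No siRNA sequence is shown, as none was among the sources used here.

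Library totals over the intervals used lay between 43328758 and 53612002 counts. The share of counts in 45S ribosomal RNA was 14.8% in siRNA-1 replicate 3, 8.48% in siRNA-2 replicate 2 and 1.68% to 5.03% in the other 10 libraries. Of 10 markers of glioma lines, VIM, CD44, S100A6 and NES reached at least 1592, 567, 517 and 327 CPM in each library (CPM, counts per 1000000 counts of the library, library sizes scaled by TMM). SOX2 reached at most 16.9 CPM, OLIG2 10.5, CHI3L1 9.61, GFAP 8.84 and PDGFRA 4.20, and S100B was at or near 0. The summed CPM of these 10 markers was 3191 to 3512 in the siRNA-1 libraries, 3697 to 3928 in the siRNA-2 libraries and 4163 to 4505 in the scrambled libraries. Of the 9 tested, 4 rose and 4 fell with siRNA-1, and 4 rose and 3 fell with siRNA-2. Among all genes tested, 28.6% rose and 24.8% fell with siRNA-1, and 30% rose and 26.2% fell with siRNA-2. Rises and falls here are calls by the test described below. On the log2 scale, VIM fell by 0.64 with siRNA-1 and by 0.44 with siRNA-2. VIM carried much of the summed CPM, at a mean of 1669 CPM in siRNA-1 libraries, 1928 in siRNA-2 libraries and 2609 in scrambled libraries. CHI3L1 rose by 1.26 with siRNA-1 and by 1.06 with siRNA-2 on the log2 scale. NES rose by 0.23 with siRNA-1 but fell by 0.27 with siRNA-2, and CD44 fell by 0.23 with siRNA-1 but rose by 0.30 with siRNA-2. The summed CPM of 16 markers of epithelial, endothelial, blood, neuronal and oligodendrocyte cells was 100.2 to 116 in the siRNA-1 libraries, 183 to 213 in the siRNA-2 libraries and 74.1 to 81.3 in the scrambled libraries, and CD68, at 34.9 to 179 CPM, and SYT1, at 22.1 to 31.0 CPM, carried most of it, with CD3E and MAG at or near 0. All 15 listed interferon response genes rose with both siRNAs. Their summed CPM was 3651 to 3875 in siRNA-1 libraries, 4824 to 5176 in siRNA-2 libraries and 522 to 1295 in scrambled libraries, highest in scrambled replicate 1. The part of these marker and interferon levels in the results below was not tested. In bulk RNA, fewer cells of a type and less RNA per cell cannot be told apart.

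Changes below are log2 fold changes with their standard error (SE), from edgeR's quasi-likelihood test with Benjamini-Hochberg adjustment over all genes tested, called where the adjusted p is under 0.05. With siRNA-1, 6 of the 9 genes rose, 2 fell and 1 was not called. Among all genes tested with siRNA-1, 28.6% rose and 24.8% fell, 53.5% in all. With siRNA-2, 6 rose, 2 fell and 1 was not called, against a background of 30% higher and 26.2% lower, 56.1% in all. All 9 genes are protein-coding, and of 15232 protein-coding genes tested, 9603 were called with siRNA-1 and 9991 with siRNA-2. The median log2 fold change of the 9 genes was 0.14 with siRNA-1 and 0.16 with siRNA-2, beside 0.01 with either siRNA over all genes tested. The siRNA libraries lay wholly apart from the scrambled ones for 8 genes with siRNA-1 and 6 with siRNA-2, where 47.5% of all genes tested did so with siRNA-1 and 51.9% with siRNA-2. The comparisons with scrambled use the same 4 scrambled libraries.

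The sizes differed far more between the genes than the calls did. ROR1 was the only one of the 9 past a log2 change of 1 in either comparison with scrambled. FZD2, PTK7 and, with siRNA-1, WNT5A rose, and VANGL1 fell with both siRNAs. RYK, VANGL2 and the whole WNT5B row had smaller changes, and some of their calls depended on the settings. Counted outside FBXL14, a gene nested in its interval, WNT5B rose by 0.59 with siRNA-1 and by 0.95 with siRNA-2. ROR2, with few counts, was at 0.93 with siRNA-2, a call that also depended on the settings.

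**Figure D1:**
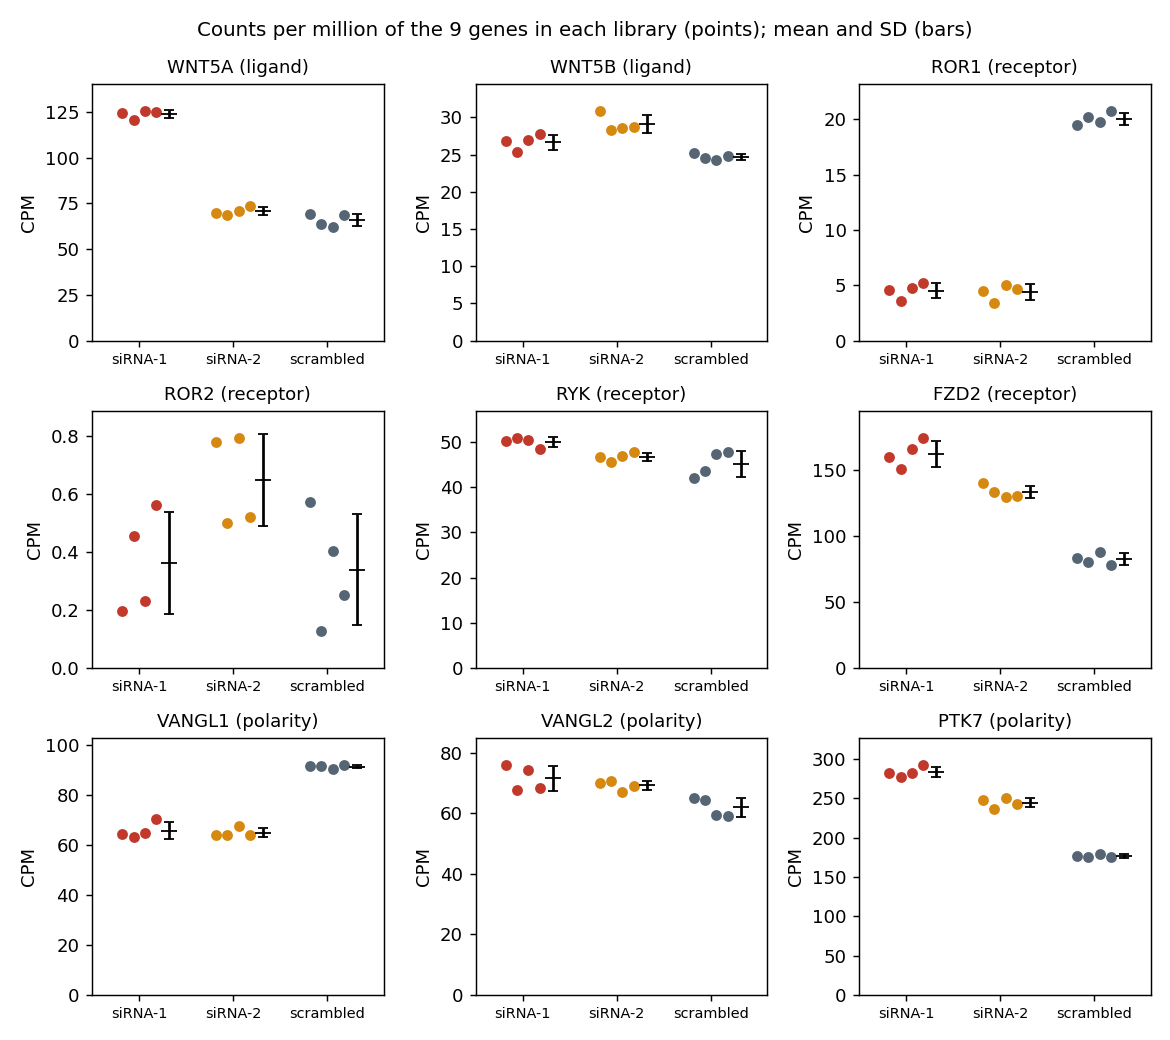
CPM (vertical axes, each starting at 0) of the 9 genes in each of the 12 libraries (points), with the mean and SD of each group of 4 (bars), for siRNA-1, siRNA-2 and scrambled. ROR1 and VANGL1 sit below the scrambled libraries with both siRNAs, FZD2 and PTK7 above, and WNT5A stands high only in the siRNA-1 libraries.

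WNT5A, the secreted ligand best known for non-canonical signalling, rose with siRNA-1. Its level was 124, 120.4, 125 and 125 CPM in the siRNA-1 libraries, against 69.1, 63.6, 62.2 and 68.7 CPM in the scrambled ones. The siRNA-2 libraries held 69.6, 68.6, 71.0 and 73.6 CPM, a range that overlapped the scrambled one. The siRNA-1 libraries were all far above both other groups.

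WNT5A rose by 0.91 on the log2 scale with siRNA-1 (SE 0.04, adjusted p = 9.25e-16). With siRNA-2 it was 0.10 (SE 0.04, adjusted p = 0.032), a call lost in 12 of 21 alternative settings. The siRNA-2 libraries held less WNT5A than the siRNA-1 libraries, at a log2 ratio of -0.81 (SE 0.04, adjusted p = 6.97e-14). The WNT5A interval (chr3:55464028-55505261, minus strand, hg38) covers introns and exons. It also holds the opposite-strand WNT5A-AS1 with 9.34% of its counts and CHESS2773 with 10.9%, and the counting is not stated to use strand. Outside both, the change was 0.87 (SE 0.04, adjusted p = 1.08e-15) with siRNA-1 and 0.06 (SE 0.04, adjusted p = 0.221) with siRNA-2, and siRNA-2 was uncalled in all 15 refits (each library left out, and 3 other settings).

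The stretch of WNT5A-AS1 holds no annotated WNT5A exon base, and its reads rose with both siRNAs, more with siRNA-1. Its log2 fold change was 1.13 (SE 0.09) with siRNA-1 and 0.38 (SE 0.09, adjusted p = 7.41e-04) with siRNA-2. The RefSeq promoter of the first WNT5A start (GRCh38.p14, chr3:55487257-55487556, minus strand) lies just beside this antisense gene and is shown for that reason. The WNT5A interval runs upstream past this start, to position 55505261. Capitals mark the match of the Sp1 GC box GGGCGG, read on either strand; the window of a second WNT5A start held none.
WNT5A first start: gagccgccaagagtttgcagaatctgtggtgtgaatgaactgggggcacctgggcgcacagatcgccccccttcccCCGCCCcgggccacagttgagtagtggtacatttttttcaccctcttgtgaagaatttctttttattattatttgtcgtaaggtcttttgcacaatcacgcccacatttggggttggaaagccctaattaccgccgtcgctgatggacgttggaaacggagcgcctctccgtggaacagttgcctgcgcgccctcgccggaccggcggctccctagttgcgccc

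WNT5B, the close paralog of WNT5A, had a row whose reads lie largely within another gene. The WNT5B interval (chr12:1529856-1647519, plus strand) wholly contains the opposite-strand FBXL14, an F-box protein gene, and the stretch of FBXL14 held 65.7% of the WNT5B counts but only 4.30% of the annotated WNT5B exon bases. The whole row held 25.3 to 27.7 CPM in the siRNA-1 libraries and 28.3 to 30.8 CPM in the siRNA-2 libraries, against 24.3 to 25.2 CPM in the scrambled ones. It rose by 0.24 (SE 0.05, adjusted p = 1.07e-04) on the log2 scale with siRNA-2. With siRNA-1 it was 0.11 (SE 0.05, adjusted p = 0.0481), a call lost in 18 of 21 alternatives.

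Counted outside FBXL14, WNT5B held 9.50, 8.99, 9.44 and 9.36 CPM in the siRNA-1 libraries and 12.2, 11.8, 11.8 and 12.1 CPM in the siRNA-2 libraries, against 6.51, 6.46, 6.25 and 5.54 CPM in the scrambled libraries. No library of a group reached the range of another group. Thus counted, WNT5B rose by 0.59 (SE 0.07, adjusted p = 1.05e-07) with siRNA-1 and by 0.95 (SE 0.07, adjusted p = 1.44e-11) with siRNA-2, and siRNA-2 exceeded siRNA-1 by 0.36 (SE 0.07, adjusted p = 1.67e-04). All 15 refits called each of these, at 0.54 to 0.61 for siRNA-1, 0.90 to 0.97 for siRNA-2 and 0.35 to 0.37 for siRNA-2 over siRNA-1. FBXL14 itself was not called, at -0.09 (SE 0.06, adjusted p = 0.166) with siRNA-1 and -0.11 (SE 0.06, adjusted p = 0.0878) with siRNA-2. This count outside FBXL14 was chosen after the data were seen. It also covers bases before both RefSeq starts of WNT5B, whose promoter windows (chr12:1616806-1617105 and chr12:1628981-1629280) lie beyond FBXL14. It may still hold reads of LOC107984507, which partly overlaps the interval and whose shared reads were not separated. LOC107984507 as a whole averaged 0.787 CPM in siRNA-1 libraries and 0.928 CPM in siRNA-2 libraries, against 0.271 CPM in scrambled libraries, and rose by 1.52 (SE 0.29) with siRNA-1 and by 1.75 (SE 0.29) with siRNA-2.

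**Figure D2:**
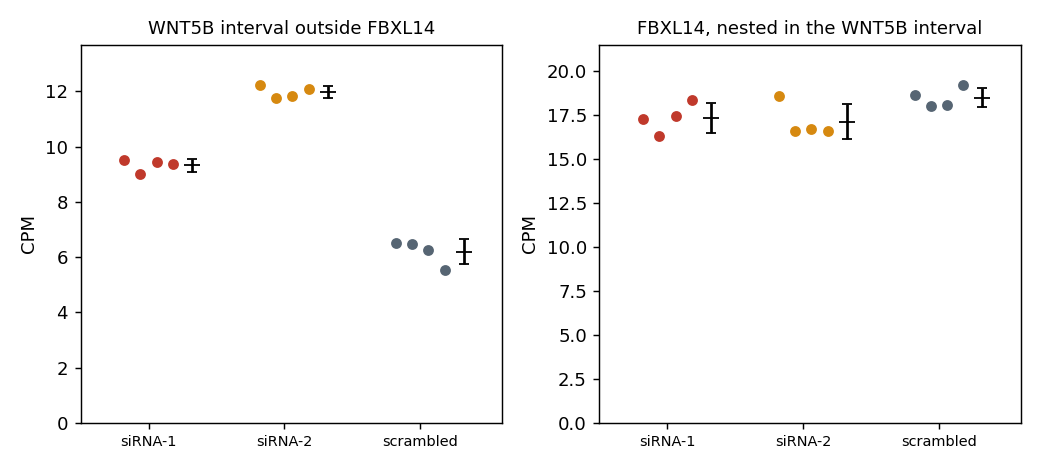
CPM of the reads of the WNT5B interval outside FBXL14 (left) and within FBXL14 (right) in each library (points), with group mean and SD (bars, n = 4). The left panel shows 3 separate groups, siRNA-2 highest at 11.8 to 12.2 CPM, and the right panel shows groups that overlap.

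ROR1, a receptor tyrosine kinase-like pseudokinase that binds WNT5A, fell strongly with both siRNAs. It had 209, 171, 205 and 248 counts in the siRNA-1 libraries and 194, 184, 259 and 241 in the siRNA-2 libraries, against 885, 949, 974 and 988 in the scrambled ones. As CPM this was 4.59, 3.55, 4.74 and 5.16 in siRNA-1 libraries and 4.46, 3.41, 5.01 and 4.64 in siRNA-2 libraries, against 19.5, 20.2, 19.7 and 20.7 in scrambled libraries. The highest siRNA library stood well under the lowest scrambled library, while the siRNA groups overlapped each other.

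The log2 fold change of ROR1 was -2.15 (SE 0.10, adjusted p = 6.87e-14) with siRNA-1 and -2.19 (SE 0.10, adjusted p = 4.03e-14) with siRNA-2, a ratio of 0.225 for siRNA-1 and 0.219 for siRNA-2. Of 25196 genes tested, 39 had a lower log2 fold change with siRNA-1 and 36 with siRNA-2. The siRNAs differed by -0.04 (siRNA-2 over siRNA-1, SE 0.11, adjusted p = 0.815), with a 95% interval from -0.29 to 0.21. Across all alternatives the change stayed within -2.22 to -2.07 for siRNA-1 and within -2.27 to -2.09 for siRNA-2. Without scrambled replicate 1, the control library with the highest interferon sum, it was -2.19 with siRNA-1 and -2.22 with siRNA-2.

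The ROR1 interval (chr1:63774017-64184873, plus strand) contains ROR1-AS1 on the opposite strand, with 31.8% of the counts, 4 of 10 ROR1 exon blocks and 24.4% of the exon bases. The reads within ROR1-AS1 fell by 2.15 (SE 0.16) with siRNA-1 and by 2.00 (SE 0.15) with siRNA-2 on the log2 scale, and they cannot be assigned to either strand. Outside ROR1-AS1 and the smaller LOC105378772, ROR1 held 2.99, 2.47, 3.03 and 3.52 CPM in siRNA-1 libraries and 2.80, 2.41, 3.04 and 2.75 CPM in siRNA-2 libraries, against 12.7, 13.4, 13.4 and 13.5 CPM in scrambled libraries. The log2 fold change there was -2.14 (SE 0.10) with siRNA-1 and -2.27 (SE 0.10) with siRNA-2.

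ROR2, the paralog of ROR1 and the receptor most tied to WNT5A in development, was barely detected (chr9:91722290-91950228, minus strand). It had 9, 22, 10 and 27 counts in the siRNA-1 libraries and 34, 27, 41 and 27 in the siRNA-2 libraries, against 26, 6, 20 and 12 in the scrambled ones. The siRNA-1 counts overlapped the scrambled range. The siRNA-2 counts were all above the scrambled ones, but as CPM, at 0.50 to 0.79 in siRNA-2 libraries and 0.13 to 0.57 in scrambled libraries, the groups overlapped. In siRNA-2 libraries ROR2 was higher by 0.93 (SE 0.37, adjusted p = 0.0369) on the log2 scale, a call lost in 6 of 20 alternatives, where adjusted p ranged from 0.00807 to 0.135. With siRNA-1 it was 0.11 (SE 0.40, adjusted p = 0.841), with a 95% interval from -0.79 to 1.01.

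RYK (chr3:134127428-134250859, minus strand), a WNT-binding receptor with an inactive kinase domain, had 50.3, 50.9, 50.5 and 48.4 CPM in the siRNA-1 libraries and 46.8, 45.5, 46.9 and 47.8 CPM in the siRNA-2 libraries, against 42.0, 43.5, 47.5 and 47.9 CPM in the scrambled ones. The siRNA-1 libraries lay just above the scrambled range and the siRNA-2 libraries within it. RYK rose by 0.14 (SE 0.04, adjusted p = 0.00813) with siRNA-1, and without scrambled replicate 1 it was 0.09 (adjusted p = 0.116). With siRNA-2 it was 0.05 (SE 0.04, adjusted p = 0.393), with a 95% interval from -0.05 to 0.15.

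FZD2, a frizzled receptor of WNT5A, rose with both siRNAs and more with siRNA-1. It had 160, 150.3, 165 and 174 CPM in the siRNA-1 libraries and 140, 133, 129 and 130 CPM in the siRNA-2 libraries, against 83.0, 80.0, 88.0 and 77.7 CPM in the scrambled ones. The 3 groups did not overlap. FZD2 rose by 0.98 (SE 0.04, adjusted p = 2.56e-15) with siRNA-1 and by 0.69 (SE 0.04, adjusted p = 1.37e-12) with siRNA-2, and the log2 ratio of siRNA-2 over siRNA-1 was -0.29 (SE 0.04, adjusted p = 1.45e-05). FZD2 (chr17:44557445-44561262, plus strand) is a single-exon gene, so its interval holds no intron.

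PTK7 (chr6:43076269-43161720, plus strand), a pseudokinase co-receptor used in planar polarity, also rose with both siRNAs. Its level was 282, 277, 282 and 292 CPM in the siRNA-1 libraries and 248, 237, 249.9 and 243 CPM in the siRNA-2 libraries, against 177, 175, 179.5 and 176 CPM in the scrambled ones, again with no overlap between the 3 groups. On the log2 scale PTK7 rose by 0.68 (SE 0.03, adjusted p = 8.73e-15) with siRNA-1 and by 0.47 (SE 0.03, adjusted p = 7.94e-12) with siRNA-2. The siRNA-2 libraries were below the siRNA-1 libraries, at a log2 ratio of -0.21 (SE 0.03, adjusted p = 1.66e-05).

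VANGL1 (chr1:115641954-115698224, plus strand), a membrane protein of the planar polarity core, fell with both siRNAs. Its level was 64.4, 63.1, 65.0 and 70.7 CPM in the siRNA-1 libraries and 64.1, 64.2, 67.8 and 64.1 CPM in the siRNA-2 libraries, against 91.9, 91.6, 90.6 and 92.0 CPM in the scrambled ones. Every siRNA library was well below every scrambled library, and the scrambled libraries were close together. The log2 fold change was -0.48 (SE 0.04, adjusted p = 1.25e-10) with siRNA-1 and -0.49 (SE 0.04, adjusted p = 5.26e-11) with siRNA-2, and the siRNAs differed by -0.02, with a 95% interval from -0.10 to 0.07.

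VANGL2 (chr1:160400564-160430463, plus strand), its paralog, rose slightly with both siRNAs. It had 75.8, 67.7, 74.2 and 68.2 CPM in the siRNA-1 libraries and 69.9, 70.6, 67.1 and 69.1 CPM in the siRNA-2 libraries, against 65.1, 64.4, 59.4 and 59.2 CPM in the scrambled ones. Both siRNA groups lay above the scrambled range by a small margin. VANGL2 rose by 0.20 (SE 0.04, adjusted p = 3.31e-04) with siRNA-1 and 0.16 (SE 0.04, adjusted p = 0.00356) with siRNA-2, and the siRNA-2 call was lost, at adjusted p = 0.0861, when every gene interval of the table was fitted.

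**Figure D3:**
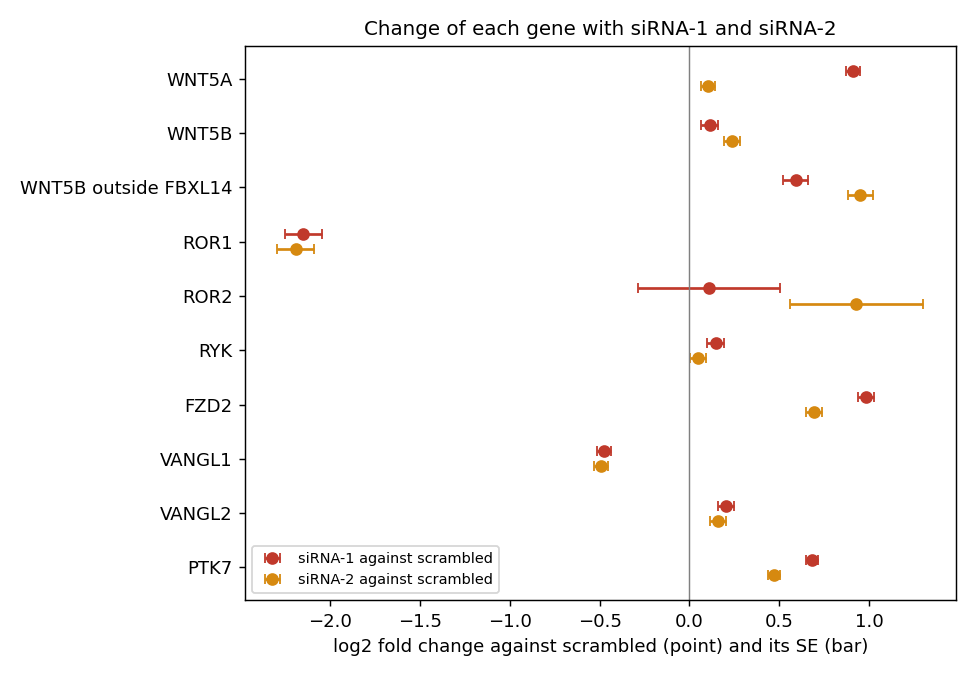
Log2 fold change against scrambled (horizontal axis, points) with its SE (bars) for the 9 genes and for WNT5B counted outside FBXL14, for siRNA-1 and siRNA-2. ROR1 lies at -2.15 with siRNA-1 and -2.19 with siRNA-2, VANGL1 at -0.48 with siRNA-1 and -0.49 with siRNA-2, and WNT5A has points far apart, at 0.91 with siRNA-1 and 0.10 with siRNA-2.

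Between the siRNAs, 1 of the 9 genes was higher with siRNA-2 than with siRNA-1 (WNT5B), 3 were lower (WNT5A, FZD2 and PTK7) and 5 were not called. The WNT5B call is that of the whole row, FBXL14 included, at 0.13 (SE 0.05, adjusted p = 0.0403), and was lost in 7 of 21 alternatives. Of all genes tested, 15.8% were higher and 16.9% lower with siRNA-2, 32.7% in all. The groups did not overlap for 5 of the 9 genes and for 32% of all genes tested.

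ROR1 and VANGL1, at different levels and with changes of different size, had parallel patterns over the 3 groups, with a Pearson r of 0.990 between their log2 CPM in 12 libraries. FZD2 and PTK7 had an r of 0.992, and ROR1 and FZD2 an r of -0.92. These values describe libraries that share group and depth. Among 12548 protein-coding genes with an average log2 CPM of at least 1, the 5 most like ROR1 were DISP1 (r = 0.993), NQO1, AKR1C1, RNF10 and VANGL1. DISP1 had log2 fold changes of -0.52 with siRNA-1 and -0.55 with siRNA-2. AKR1C1, whose interval overlaps that of its paralog AKR1C2 and may share reads with it, had -1.66 with siRNA-1 and -1.64 with siRNA-2. NQO1, whose interval overlaps NFAT5 and NOB1, had -0.59 with siRNA-1 and -0.55 with siRNA-2. The 5 most like WNT5A were BCAT2 (r = 0.987), PURB, LIPG, NUAK1 and CLTCL1. BCAT2 had log2 fold changes of 0.83 with siRNA-1 and 0.17 with siRNA-2.

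The promoters of ROR1 and VANGL1, the pair of the 9 genes that fell with both siRNAs, are shown from RefSeq (GRCh38.p14), each from 250 bases before to 50 bases after the start. RefSeq entries matched 8 of the 9 genes, and FZD2 had none. Both strands were searched for the GC box GGGCGG, the TATA box TATAAA, the antioxidant response element core TGACNNNGC and the interferon-stimulated response element core GAAANNGAA, with matches in capitals.
ROR1, chr1:63773767-63774066, plus strand: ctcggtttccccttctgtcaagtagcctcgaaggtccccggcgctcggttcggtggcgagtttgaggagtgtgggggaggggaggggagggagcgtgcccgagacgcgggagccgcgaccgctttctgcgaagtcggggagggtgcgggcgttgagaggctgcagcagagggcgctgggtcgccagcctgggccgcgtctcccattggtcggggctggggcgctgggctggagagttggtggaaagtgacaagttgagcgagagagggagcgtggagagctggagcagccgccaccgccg
VANGL1 first start, chr1:115641720-115642019, plus strand: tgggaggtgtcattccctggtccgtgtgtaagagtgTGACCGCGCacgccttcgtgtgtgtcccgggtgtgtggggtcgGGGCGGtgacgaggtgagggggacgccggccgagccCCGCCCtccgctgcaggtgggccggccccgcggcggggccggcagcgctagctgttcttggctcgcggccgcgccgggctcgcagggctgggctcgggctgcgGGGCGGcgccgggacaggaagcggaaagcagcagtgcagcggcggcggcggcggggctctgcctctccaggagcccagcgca
The ROR1 window held 29 CpG and none of the 4 motifs, while the VANGL1 window held 38 CpG, 3 matches of GGGCGG and 1 of TGACNNNGC. The window of a second VANGL1 start (chr1:115642379-115642678) held 32 CpG, 3 matches of GGGCGG and none of the other 3 motifs. The median over 35116 promoters of the same length was 14 CpG. Of those promoters, 44.95% held GGGCGG, 11.5% TATAAA, 13.3% TGACNNNGC and 8.11% GAAANNGAA. A match is a run of letters and not a shown binding site.

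Levels per length place the 9 genes in an order. Per kilobase of annotated exon, in scrambled libraries, FZD2 averaged 38.9 ± 2.11 CPM, PTK7 19.6 ± 0.233, VANGL2 11.6 ± 0.591, VANGL1 10.1 ± 0.0674 and WNT5A 8.91 ± 0.476 (SD, n = 4 each). Over its whole 3818-base interval, longer than its annotated exon, FZD2 averaged 21.5 ± 1.17. WNT5B, at 5.73 ± 0.0870, and RYK, at 5.62 ± 0.363, overlapped, but WNT5B outside FBXL14 was at 1.502 ± 0.109. ROR1 was at 2.98 ± 0.0834 and ROR2 at 0.0582 ± 0.0330, the lowest. With siRNA-1, WNT5A stood at 16.7 and above VANGL2 at 13.4, and ROR1 stood at 0.672. With siRNA-2, VANGL2 stood at 12.95 and above WNT5A at 9.56, and ROR1 at 0.652. Reads in introns are counted in these levels.

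Other genes of the pathway moved in both directions, in lists by role, with changes given on the log2 scale. The shares over all genes tested, to be set beside each list, were 28.6% up and 24.8% down with siRNA-1. With siRNA-2 they were 30% up and 26.2% down. Of 15 tested core planar polarity genes of 16 listed, 8 rose, 4 fell and 3 were not called with siRNA-1 (median log2 fold change 0.21), and 7, 4 and 4 with siRNA-2 (median 0.03). DVL2, a Dishevelled adaptor, rose by 0.60 (SE 0.04) with siRNA-1 and 0.82 (SE 0.04) with siRNA-2. CELSR2, an adhesion cadherin of the polarity core, rose by 0.77 (siRNA-1) and 0.64 (siRNA-2), and DVL1, a paralog of DVL2, rose by 0.42 (siRNA-1) and 0.57 (siRNA-2).

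Of 12 tested ligands, co-receptors and extracellular modulators of 13 listed, 3 rose, 8 fell and 1 was not called with siRNA-1 (median -0.44), and 4, 5 and 3 with siRNA-2 (median -0.06). SDC4, a syndecan co-receptor, fell by 0.70 with siRNA-1 and by 0.59 with siRNA-2. MCAM, a cell-surface receptor reported to bind WNT5A and whose interval overlaps CBL, rose by 0.51 (siRNA-1) and 0.82 (siRNA-2). GPC4, a glypican, rose by 0.34 (siRNA-1) and 0.70 (siRNA-2). WNT4 had 8, 10, 9 and 5 counts in siRNA-1 libraries and 23, 21, 19 and 21 in siRNA-2 libraries, against 3, 1, 0 and 6 in scrambled libraries. At these few counts, it rose by 1.67 (SE 0.585, adjusted p = 0.0188) with siRNA-1 and by 2.93 (SE 0.518, adjusted p = 2.75e-05) with siRNA-2. WNT11, the other ligand of the non-canonical branch described here, and like WNT4 chosen after its values were seen, had 74, 42, 32 and 61 counts in siRNA-1 libraries and 40, 39, 26 and 40 in siRNA-2 libraries, against 88, 99, 91 and 97 in scrambled libraries. WNT11 fell by 0.81 (SE 0.21, adjusted p = 0.00202) with siRNA-1 and by 1.44 (SE 0.22, adjusted p = 3.20e-06) with siRNA-2. The WNT4 interval partly overlaps LOC105376845 and the WNT11 interval LOC112268079, and reads may be shared with them.

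Of 15 effectors between Dishevelled and the cytoskeleton, 3 rose, 11 fell and 1 was not called with each siRNA, with medians of -0.30 with siRNA-1 and -0.34 with siRNA-2. Over all genes tested, 28.6% rose and 24.8% fell with siRNA-1, and 30% rose and 26.2% fell with siRNA-2. JUN, a transcription factor at the end of the JNK branch, rose by 0.77 (siRNA-1) and 0.83 (siRNA-2). RHOA, a small GTPase of this branch, fell by 0.52 (siRNA-1) and by 0.30 (siRNA-2). Its interval partly overlaps CHESS2765, whose counts equal 93.1% of the RHOA counts, so many reads may be shared. MAPK9, which encodes JNK2, fell by 0.49 (siRNA-1) and by 0.34 (siRNA-2). Of 14 tested genes of the calcium branch of 15 listed, 4 rose, 7 fell and 3 were not called with siRNA-1 (median -0.13), and 7, 5 and 2 with siRNA-2 (median 0.07). PRKCA, protein kinase C alpha, fell by 0.58 (siRNA-1) and by 1.09 (siRNA-2), and NFATC1, a calcineurin-dependent transcription factor, rose by 0.72 (siRNA-1) and 0.75 (siRNA-2). PPP3CB, a calcineurin catalytic subunit whose interval partly overlaps PPP3CB-AS1, fell by 0.38 (siRNA-1) and by 0.60 (siRNA-2).

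Of 8 tested Fat-Dachsous and ciliary polarity genes of 9 listed, 2 rose, 2 fell and 4 were not called with siRNA-1 (median -0.02), and 3, 4 and 1 with siRNA-2 (median -0.03). DCHS1, a giant cadherin, rose by 0.72 (siRNA-1) and 0.64 (siRNA-2). WDPCP, a ciliary polarity effector, fell by 0.14 (siRNA-1) and by 0.29 (siRNA-2), but 76.6% of its counts lie in MDH1, which its interval contains. FJX1 was at 0.03 (adjusted p = 0.706) with siRNA-1 and rose by 0.35 with siRNA-2. Of 12 tested genes of trafficking, kinases and turnover of 14 listed, 5 rose, 2 fell and 5 were not called with siRNA-1 (median 0.04), and 7, 2 and 3 with siRNA-2 (median 0.11). SEC24B, a coat protein that carries VANGL2 out of the endoplasmic reticulum in mice, rose by 0.85 (siRNA-1) and 0.72 (siRNA-2). GOPC, a Golgi scaffold protein whose interval overlaps DCBLD1, rose by 0.76 (siRNA-1) and 0.82 (siRNA-2). MMP14, a membrane protease, was at -0.00 (adjusted p = 0.961) with siRNA-1 and rose by 0.33 with siRNA-2. The background shares of genes called, 28.6% up and 24.8% down with siRNA-1 and 30% up and 26.2% down with siRNA-2, apply to these lists as well.

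**Figure D4:**
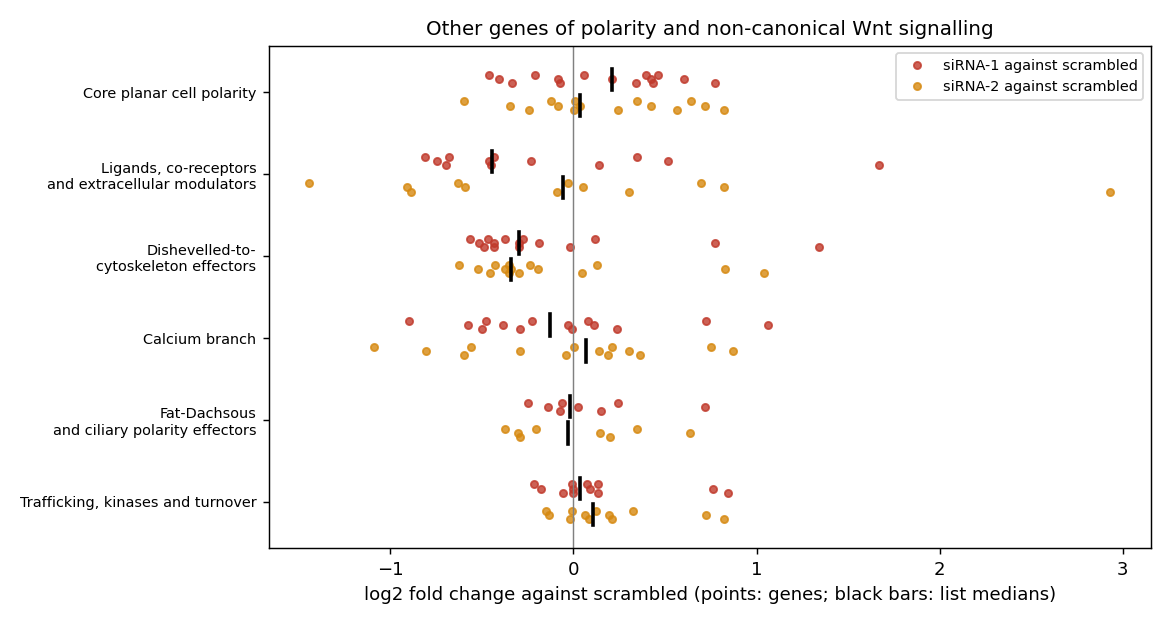
Log2 fold change against scrambled (horizontal axis) of each tested gene (points) of 6 role lists, for siRNA-1 and siRNA-2, with list medians (black bars). All 6 lists spread to both sides of 0. The ligand list has medians of -0.44 with siRNA-1 and -0.06 with siRNA-2, and the effectors between Dishevelled and the cytoskeleton -0.30 with siRNA-1 and -0.34 with siRNA-2.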

How the data were processed

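The authors deposited unnormalized integer counts of reads in each interval. The submitters' processing notes name Salmon and hg38, without a version. How the interval counts were made, and whether strand was used, is not stated in any label or header. Intervals cover whole gene spans, introns included, and overlapping intervals share reads. Of 48769 gene intervals, 4105 were left out (1961 reaching over 100 kb beyond the gene, 1405 with counts equal to those of an overlapping interval, 592 under an older name, 69 unmatched and over 1 Mb, 31 of ribosomal RNA, 28 with a number for a name and 19 copies on chromosome Y), as were 481 ultraconserved and 481 random regions. Library totals of 43328758 counts or more set the precision, and ROR2 alone of the 9 genes had few counts.

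The test was the quasi-likelihood test of edgeR 4.0.16 under R 4.3.3, two-sided. It used TMM factors, filterByExpr with a minimum count of 10 and a minimum total of 15, and 1 robust model of the 12 libraries in which the group was the sole covariate. Adjustment by Benjamini-Hochberg covered all 25196 genes tested. SE is the absolute log2 fold change over the square root of F, and 95% intervals use 9 residual degrees of freedom. The script was tested on simulated data. Alternatives were DESeq2 factors within edgeR, DESeq2 1.42.0, no filter, at least 1 CPM in at least 4 libraries, protein-coding genes, every gene interval, the compared groups alone, a block for replicate number, each library left out in turn and, chosen after seeing the data, reads outside nested genes. Exon lengths are from GENCODE.

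The 9 genes and the lists were chosen with earlier results of these data known. Up to 3 genes per list are named by smallest p against scrambled, and the 5 genes most like ROR1 and WNT5A by Pearson r of log2 CPM. SCRIB, NFATC4, DCHS2 and SMURF1 had no usable interval, and SFRP2 and RNF43 were too low to test. Figures were drawn with matplotlib 3.10.9.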

Additional observations from a re-analysis of the deposited data

Results flagged for a closer look

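In groups of 4 libraries, a single library far from the other 3 was looked for in each of the 9 genes, in 27 groups, of which chance marks about 1 in 20. WNT5B in siRNA-2 replicate 1 stood at 30.83 CPM, against 28.33 to 28.69 in the other siRNA-2 libraries. VANGL1 in siRNA-2 replicate 3 stood at 67.83 CPM, against 64.05 to 64.24 in the others, still below every scrambled library.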

How the results depend on the processing

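Of 549 values of the 9 genes under alternatives, 491 kept direction and call, 47 lost the call, 2 gained one and 9 changed sign, none of the last called. ROR1, FZD2, PTK7 and VANGL1 against scrambled and WNT5A with siRNA-1 kept theirs throughout. The genes called higher with siRNA-2 were 5025 when only protein-coding genes were fitted, against 7552, and members called with siRNA-2 were 5 with every gene interval fitted, against 8; fewer genes were tested in the first, and the cause of the second was not tested. With every gene interval, RYK with siRNA-2 was -0.019. Leaving out 1 library in turn, RYK with siRNA-2 ranged from -0.0042 to 0.075, ROR2 with siRNA-1 from -0.18 to 0.45, ROR1 in siRNA-2 against siRNA-1 from -0.14 to 0.063 and VANGL1 there from -0.038 to 0.019. The WNT5A call with siRNA-2 was lost without scrambled replicate 2 or 3, siRNA-1 replicate 2, or siRNA-2 replicate 3 or 4, the WNT5B call with siRNA-1 in every such fit except those without siRNA-2 replicate 1 or 3, and the WNT5B call in siRNA-2 against siRNA-1 without siRNA-1 replicate 1, 2 or 3, or siRNA-2 replicate 1 or 4. The ROR2 call with siRNA-2 was lost without scrambled replicate 2 or 4, or siRNA-2 replicate 1 or 3, and the RYK call with siRNA-1 without scrambled replicate 1 or siRNA-1 replicate 2.

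Same-numbered libraries did not deviate together (r from -0.12 to 0.10, 1 of 12 best matched by its own number). This check could miss a small shared effect or one limited to few genes, so whether they shared a culture or day is not known. With the replicate block, 13374, 14089 and 8137 genes were called for siRNA-1, siRNA-2 and siRNA-2 against siRNA-1, against 13475, 14141 and 8234, and among the 9 genes only the WNT5B call with siRNA-1 was lost (0.11, adjusted p = 0.0522). Low counts limit ROR2.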
